A study of Homo sapiens with 12 samples.

Results

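The 10 imprinted genes H19, IGF2, KCNQ1OT1, DLK1, MEG3, PEG10, MEST, NNAT, PEG3 and SNRPN were followed across 3 leukemia cell lines. They were chosen by name, each symbol was matched to 1 Ensembl identifier, and all 10 were found among the 60671 genes of the count table. RNA-seq read counts were available for 4 replicates of each line. K562 is a human erythroleukemia line derived from chronic myeloid leukemia. K/VP.5 is a clonal line selected from K562 for resistance to etoposide, a poison of DNA topoisomerase IIα. K562/SSedit-2 is a single clone of K562 in which CRISPR/Cas9 with homology-directed repair altered the 5′ splice site at the boundary of exon 19 and intron 19 in 2 of 3 TOP2A alleles. All lines were grown in DMEM with 10% fetal bovine serum and taken in mid-log growth, and the sample labels name no drug exposure of the sequenced cells. Because each derived line is 1 clone, a difference from K562 cannot be told apart from a difference between clones, and the labels do not say whether replicates were separate cultures, so p-values measure only the spread between these samples, which may be technical.

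An imprinted gene is transcribed mainly or only from the copy inherited from one parent. The choice is set in the germ line by DNA methylation at imprinting control regions, which are kept through cell division by DNMT1, UHRF1 and the zinc finger proteins ZFP57 and ZNF445 with their partner TRIM28. Imprinted genes lie in clusters in which a long noncoding RNA from one parental copy often accompanies protein-coding genes expressed from the other, and several of them control fetal growth. Gene counts do not separate the parental copies, so the values below are totals over all alleles. In bulk RNA, fewer expressing cells and less RNA per cell cannot be told apart.

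Total counts ranged from 28981722 to 43648830 per library, and 3 counts, the number used as the floor for a count of 0, corresponded to 0.0691 to 0.102 CPM, that is counts scaled to library size. K562 replicate 1 stood apart from the other K562 libraries: chi-square per degree of freedom was at least 53.5 in its pairs and at most 17.8 in the other K562 pairs. TOP2A, the edited gene, averaged 401.9 CPM in parental K562, 275.1 CPM in K/VP.5 and 191.7 CPM in the edited clone K562/SSedit-2. Its log2 fold change against K562 was -0.55 in K/VP.5, short of the 2-fold cutoff, and -1.07 in the edited clone (edgeR's quasi-likelihood test, Benjamini-Hochberg adjusted p = 8.58e-05 and 1.05e-06). All 9 markers of erythroid cells were above 3 counts in every line, with summed levels of 3348 to 4382 CPM in parental K562, 2985 to 3238 CPM in K/VP.5 and 4641 to 5138 CPM in the edited clone. Of 6 markers of other cell types, 5 were above 3 counts in at least 1 library of each line, EPCAM averaged 128.9 to 177.1 CPM, and the B cell marker MS4A1 was at 0 in all libraries of both derived lines. Past the threshold used below, HBE1 of the erythroid list was higher in both derived lines than in K562, and of the other list COL1A1 was higher in K/VP.5 than in either other line. The sums of these 6 were 159.8 to 199.8, 146.3 to 157.6 and 170.7 to 187.5 CPM in the same order of lines.

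Which imprinted genes were silent was asked first. A gene was called silent in a line when each of its 4 replicates had 3 or fewer counts. PEG3 and SNRPN were silent in all 3 lines. IGF2 was silent in K562 and K562/SSedit-2 but not in K/VP.5, and PEG10 was silent in K562/SSedit-2 alone, with 0 to 5 counts in K562. The count of silent members was therefore 3 of 10 in K562, 2 of 10 in K/VP.5 and 4 of 10 in the edited clone. Over the whole table, 59.8% of genes were silent in K562, with 59.9% in K/VP.5 and 60.0% in the edited clone, and 55.4% were silent in all 3 lines. The other 6 members, H19, KCNQ1OT1, DLK1, MEG3, MEST and NNAT, were not silent in any line, although MEG3 and MEST never exceeded 20 counts and MEG3 was silent in both derived lines if 10 or fewer counts were taken as silent. By that rule MEST and PEG10 were silent in K562.

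**Figure D1:**
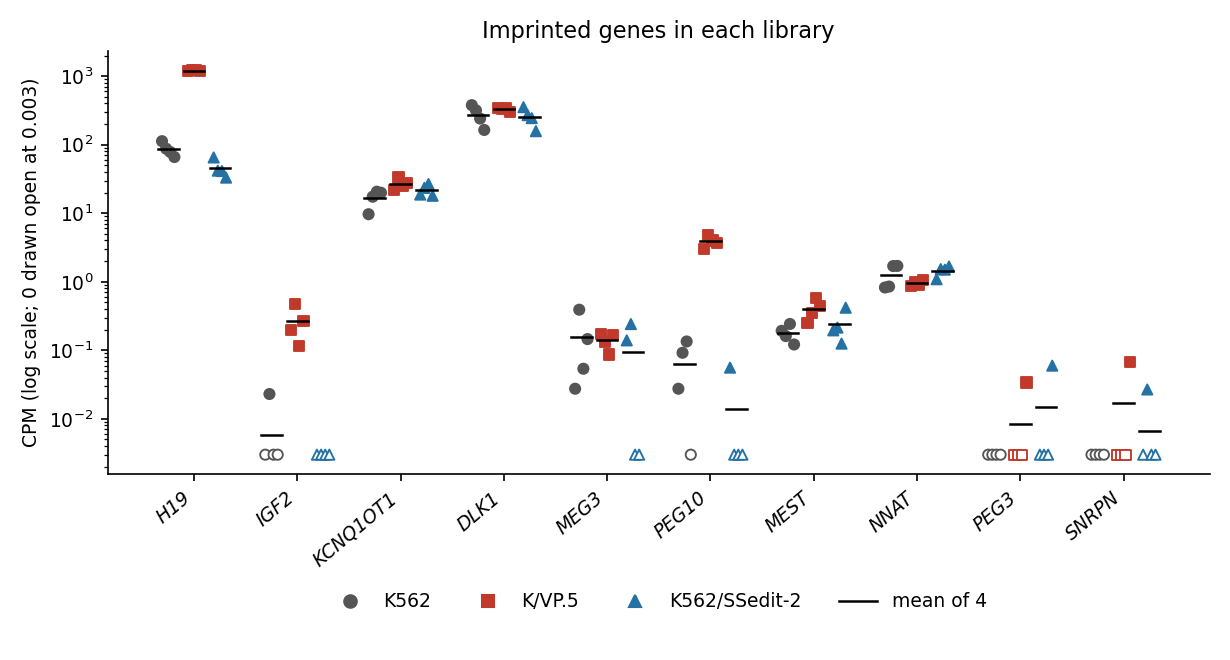
CPM (log axis) of the 10 imprinted genes in each of the 12 libraries; points are replicates, black bars are means of 4, and a count of 0 is drawn as an open symbol at 0.003. H19, IGF2 and PEG10 sit higher in all 4 K/VP.5 libraries than in any other library, while DLK1 ranges from 157.4 to 377.2 CPM with the lines overlapping.

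On a per-length scale, CPM per kb of annotated exon, DLK1 had the highest mean level of the 10 in K562 with 52.3, followed by H19 with 24.8 and NNAT with 0.954. In K562/SSedit-2 the first 3 were also DLK1 with 48.7, H19 with 13.1 and NNAT with 1.09 CPM per kb. In K/VP.5 H19 came first with 347 CPM per kb, ahead of DLK1 with 62.9, NNAT with 0.716 and PEG10 with 0.579. KCNQ1OT1 had 0.183, 0.292 and 0.234 CPM per kb in the parental line, K/VP.5 and the edited clone, a low density over 92625 annotated exon bases. MEST, MEG3 and IGF2 stayed below 0.1 CPM per kb in every line.

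H19 (ENSG00000130600, chr11:1995166-2004552, minus strand, GRCh38) is a long noncoding RNA that is normally transcribed from the maternal copy and is the host of miR-675. In K562 its 4 libraries had 112.5, 87.4, 78.2 and 66.0 CPM. In K/VP.5 they had 1174, 1230, 1223 and 1176 CPM. In K562/SSedit-2 they had 65.0, 41.7, 41.2 and 33.1 CPM. No library of one line overlapped another line, with K/VP.5 highest, K562 next and K562/SSedit-2 lowest. The means were 86.0 ± 19.7, 1201 ± 29.9 and 45.3 ± 13.8 CPM (SD, n = 4 each), which placed H19 at rank 2867 of 60671 genes in K562, at rank 52 in K/VP.5 and at rank 4762 in the edited clone. H19 rose in K/VP.5 against K562 with a log2 fold change of 3.80 (SE 0.19), or 13.97-fold (edgeR's quasi-likelihood test, Benjamini-Hochberg adjusted p = 6.67e-11). Between K562/SSedit-2 and K562 it differed by -0.93 (SE 0.17), 1.90-fold lower with an edgeR adjusted p of 0.00288, which did not reach the 2-fold cutoff. Between the derived lines, H19 was 26.5-fold lower in K562/SSedit-2 (log2 fold change -4.73, SE 0.20, edgeR adjusted p = 7.24e-12). In K562 and in K562/SSedit-2 alike, replicate 1 had the most H19 and replicate 4 the least.

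The microRNA made from H19 is shown because its hairpin lies inside an exon of the H19 transcript, from which it is cut. RefSeq gives 2 mature forms, printed 5′ to 3′ with the seed, bases 2 to 8, in capitals.
hsa-miR-675-5p: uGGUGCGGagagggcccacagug
hsa-miR-675-3p: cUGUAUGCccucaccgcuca
They map to chr11:1996800-1996822 and chr11:1996768-1996787 on the minus strand of GRCh38.p14 and have different seeds. The gene counts do not measure mature microRNA: MIR675, the hairpin's own entry, had 0 counts in all 12 libraries while H19 had 190006 in all. Of the 382 genes of 150 bases or fewer that lie wholly inside exons of a host on the same strand with at least 1000 counts, 359, or 94.0%, had 0 in all samples. The share among genes of that length that overlap nothing was not computed, so this does not tie the 0 of MIR675 to its host.

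IGF2 (ENSG00000167244, chr11:2129112-2158391, minus strand), the fetal growth factor normally made from the paternal copy, lies beside H19. It had 0, 1, 0 and 0 counts in K562, 8, 18, 4 and 8 counts in K/VP.5, and 0 in all 4 libraries of K562/SSedit-2. Every K/VP.5 library was above every other library. The summed 38 counts against 1 gave a ratio of 42.4 to K562 after scaling by library, with an exact 95% counting interval of 7.17 to 1719. Taking 3 counts in each library as the floor, IGF2 in K/VP.5 was at least 3.49-fold above K562 and at least 3.07-fold above K562/SSedit-2. The two-sided exact permutation test of 4 against 4 libraries gave p = 0.0286 for both comparisons, the smallest value that design allows. Each was 1 of 30 such tests on the members, not adjusted, and such tests were also run on the other listed genes. IGF2 was too low for the fit across all genes. The antisense gene IGF2-AS, which shares 333 exon bases with it, had at most 2 counts in any library. At its highest, in K/VP.5, the mean was 0.266 CPM beside the 1201 CPM of H19.

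Between the 2 genes lies the H19 imprinting control region, where CTCF, an insulator protein, is known to bind the unmethylated maternal copy and to keep IGF2 from enhancers beyond H19. The core CCGCNNGGNGGCAG, with N any base, was searched on both strands of GRCh38 over the 157125 bases from the RefSeq start of H19 to the far end of IGF2. It was found 3 times, all on the minus strand and within 5 kb of the H19 start. The 3 sites are shown with 6 bases on either side and the core in capitals, since they mark the element that separates the pair.
site 1, 947 bases upstream of the H19 start, chr11:2002207-2002232: aagtggCCGCGCGGCGGCAGtgcagg
site 2, 1348 bases upstream, chr11:2002608-2002633: aagtggCCGCGCGGCGGCAGtgcagg
site 3, 1753 bases upstream, chr11:2003013-2003038: aagtggCCGCGCGGCGGCAGtgcagg
All 3 stretches are identical over the 26 printed bases. They fall inside the GENCODE 44 span of H19, which includes longer transcripts, and upstream of its RefSeq start. The same core occurs in 44 of the 448433 windows of 300 bases along chromosome 11 (0.00981%) and in 58 of 35116 RefSeq promoter windows (0.165%). A match of letters is a description and not a measured binding site, and neither CTCF binding nor DNA methylation was measured in these libraries.

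KCNQ1OT1 (ENSG00000269821, chr11:2597308-2700003, minus strand) is the long antisense RNA inside KCNQ1 that is normally transcribed from the paternal copy and represses neighboring genes. K562 had 9.68, 17.4, 20.6 and 19.9 CPM, K/VP.5 had 21.8, 33.3, 25.3 and 27.6 CPM, and K562/SSedit-2 had 18.7, 23.4, 26.7 and 18.0 CPM. The K/VP.5 libraries were all above the K562 libraries, while K562/SSedit-2 overlapped both lines. In K/VP.5 against K562 the log2 fold change was 0.67 (SE 0.20, edgeR adjusted p = 0.00974), short of the 2-fold cutoff. The lowest value belonged to K562 replicate 1, the library that stood apart, and leaving it out gave a log2 fold change of 0.46 (edgeR adjusted p = 0.00980). Its host KCNQ1, a potassium channel gene, had at most 2 counts in any library. K562/SSedit-2 differed from K562 by 0.36 and from K/VP.5 by -0.32 in log2 fold change (edgeR adjusted p = 0.304 and 0.199).

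The 3 genes above lie in the imprinted region 11p15.5, and the genes around them were read in the same fit. ASCL2, a transcription factor gene 110107 bases from IGF2, had 1, 6, 2 and 3 counts in K562, 226, 200, 193 and 193 counts in K/VP.5, and 5, 6, 5 and 6 counts in K562/SSedit-2. It rose 73.0-fold in K/VP.5 against K562 (log2 fold change 6.19, SE 0.25, edgeR adjusted p = 5.01e-12). ASCL2 entered the fit through its K/VP.5 libraries alone, so the filter favored a difference. MRPL23, a mitochondrial ribosomal protein gene 10644 bases from H19 on its other side, fell from a mean of 24.8 to 10.7 CPM in K/VP.5 (log2 fold change -1.22, SE 0.14, edgeR adjusted p = 1.70e-06). CDKN1C, an inhibitor of the cell cycle, and PHLDA2, a growth-restraining gene, did not pass the threshold and had log2 fold changes of -0.49 and -0.69. MRPL23-AS1, a noncoding RNA gene nearer to H19 than MRPL23 at 5173 bases, averaged 0.473 CPM in K562 and 0.739 CPM in K/VP.5. It did not pass the threshold (log2 fold change 0.63, SE 0.34, edgeR adjusted p = 0.145). High H19 in K/VP.5 thus stood between MRPL23, which fell, and ASCL2, which rose.

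**Figure D2:**
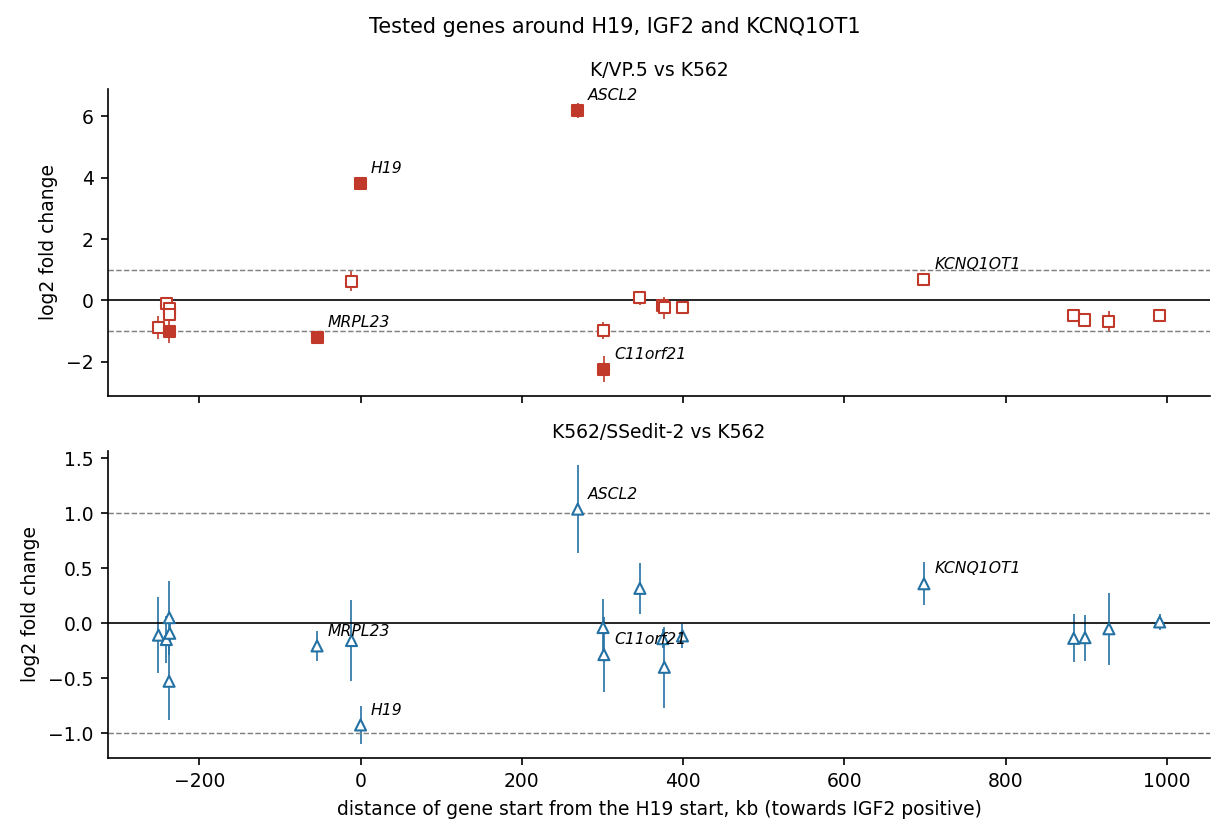
Log2 fold change (points; bars are standard errors) of the tested genes around H19, IGF2 and KCNQ1OT1 against the distance of each gene start from the H19 start, in K/VP.5 (upper panel) and K562/SSedit-2 (lower panel) against K562; filled points passed the threshold, dashed lines mark 2-fold, and the panels have different vertical scales. H19 and ASCL2 stand far above 0 in K/VP.5, with MRPL23 and C11orf21 among the 3 genes below -1, while no gene passed the threshold in K562/SSedit-2.

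DLK1 (ENSG00000185559, chr14:100725705-100738224, plus strand) encodes a Notch-related membrane protein of progenitor cells, normally from the paternal copy. K562 had 377.2, 316.6, 240.5 and 164.0 CPM, K/VP.5 had 346.7, 327.4, 344.0 and 301.6 CPM, and K562/SSedit-2 had 352.2, 269.5, 243.9 and 157.4 CPM. The 3 lines overlapped, and the spread within K562 and K562/SSedit-2 was wider than in K/VP.5: means were 274.6 ± 92.5, 329.9 ± 20.7 and 255.7 ± 80.2 CPM (SD, n = 4 each). Replicate 1 was the highest and replicate 4 the lowest in each line. The log2 fold change was 0.27 in K/VP.5 and -0.10 in the edited clone against K562, and -0.37 between the derived lines (SE 0.22 each, edgeR adjusted p = 0.355, 0.842 and 0.190). None of the 3 differences exceeded the spread between replicates.

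MEG3 (ENSG00000214548, chr14:100779410-100861031, plus strand), the long noncoding RNA normally made from the maternal copy of the same cluster, was near the floor. It had 1, 17, 2 and 6 counts in K562, 7, 5, 3 and 5 counts in K/VP.5, and 5, 9, 0 and 0 counts in K562/SSedit-2. The lines overlapped, with exact permutation p = 0.971, 0.571 and 0.429 for K/VP.5 against K562, K562/SSedit-2 against K562 and K562/SSedit-2 against K/VP.5. The cluster thus held 1 abundant and 1 barely detected member in all lines: 125881 DLK1 counts against 60 MEG3 counts over the 12 libraries. MEG8, another noncoding RNA of the cluster, had 0, 3, 1 and 1 counts in K562 and 9 to 24 counts in K/VP.5, with a fitted log2 fold change of 3.78 (SE 0.49, edgeR adjusted p = 8.91e-06). It entered the fit through K/VP.5 alone, so the filter favored a difference, and it was at least 6.15-fold higher against a floor of 3 counts. RTL1, a gene derived from a retrotransposon, lay within the same cluster and passed the threshold narrowly at 1.04 (SE 0.44, edgeR adjusted p = 0.0659), with 3 to 20 counts in K562 and 13 to 20 in K/VP.5. MEG8 and RTL1, both under 1 CPM, are named here after their values were seen.

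PEG10 (ENSG00000242265, chr7:94656325-94669695, plus strand) is a retrotransposon-derived gene normally expressed from the paternal copy. K562 had 1, 4, 5 and 0 counts, K/VP.5 had 121, 180, 138 and 109 counts, and K562/SSedit-2 had 2, 0, 0 and 0 counts. Every K/VP.5 library had over 100 counts and every other library had 5 or fewer. In K/VP.5 the mean was 3.88 ± 0.73 CPM (SD, n = 4), and PEG10 rose against K562 with a log2 fold change of 5.86 (SE 0.41), or 58.2-fold (edgeR's quasi-likelihood test, Benjamini-Hochberg adjusted p = 5.69e-09). Between the derived lines it was lower in K562/SSedit-2 (edgeR adjusted p = 3.40e-09), at least 44.6-fold when 3 counts in each of that clone's libraries were taken as the floor. The 548 counts in K/VP.5 against 2 gave a ratio of 268.2, with an exact 95% counting interval of 73.9 to 2220. Both of those counts came from replicate 1 of the edited clone, without which the log2 fold change moved from -7.77 to -10.14. K562/SSedit-2 and K562 did not differ beyond the spread (log2 fold change -1.90, SE 1.04, edgeR adjusted p = 0.302), both being close to the floor, and without the same replicate the value was -4.29.

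SGCE, an imprinted gene that shares the promoter region of PEG10 and is read in the opposite direction, stayed low. It had 0 to 5 counts in K562, 3 to 14 counts in K/VP.5 and 0 to 2 counts in the edited clone, and was too low for the fit. The two-sided exact permutation test gave p = 0.0571 for K/VP.5 against K562 and p = 0.0286 for K562/SSedit-2 against K/VP.5. The collagen gene COL1A2, 225098 bases from PEG10, rose in K/VP.5 from a mean of 4.65 to 30.8 CPM (log2 fold change 2.72, SE 0.21, edgeR adjusted p = 2.13e-08). COL1A1, one of the 6 markers of other cell types and on another chromosome, rose with it from 2.59 to 22.5 CPM, and its part in the PEG10 and H19 results was not tested.

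MEST (ENSG00000106484, chr7:130486171-130506465, plus strand), a paternally expressed gene of the hydrolase family, was low everywhere. K562 had 7, 7, 9 and 5 counts, K/VP.5 had 10, 13, 20 and 13 counts, and K562/SSedit-2 had 7, 8, 4 and 14 counts. K/VP.5 did not overlap K562, but its lowest library had 10 counts beside 9 in the highest of K562, while K562/SSedit-2 overlapped both. MEST passed the threshold in K/VP.5 against K562 with a log2 fold change of 1.15 (SE 0.39, edgeR adjusted p = 0.0227). Without K562 replicate 4 the log2 fold change was 0.98, and without K/VP.5 replicate 3 it was 0.93, both short of the cutoff. Of the genes that overlap MEST on the opposite strand, COPG2, a coat protein gene, averaged 68.1, 69.4 and 62.4 CPM in the parental line, K/VP.5 and the edited clone, and the noncoding MESTIT1 had at most 2 counts. KLF14, a transcription factor gene imprinted in the same cluster, had 3 to 8 counts in K562, 51 to 72 counts in K/VP.5 and 2 to 6 counts in the edited clone. It was 12.2-fold higher in K/VP.5 than in K562 (log2 fold change 3.61, SE 0.28, edgeR adjusted p = 2.09e-08), and it too entered the fit through K/VP.5 alone.

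NNAT (ENSG00000053438, chr20:37521206-37523690, plus strand), which encodes a small membrane protein of the developing brain, lies within BLCAP and shares 85 exon bases with it on the opposite strand. K562 had 30, 37, 63 and 70 counts, K/VP.5 had 35, 37, 31 and 31 counts, and K562/SSedit-2 had 39, 57, 48 and 56 counts. K562 spanned the widest range and overlapped both other lines. The derived lines did not overlap each other, but the log2 fold change of 0.61 between them (SE 0.26, edgeR adjusted p = 0.0624) was short of the 2-fold cutoff. Against K562 the log2 fold change was -0.42 in K/VP.5 and 0.19 in the edited clone (edgeR adjusted p = 0.201 and 0.715). BLCAP itself averaged 46.4 CPM in K562, 36.2 CPM in K/VP.5 and 47.0 CPM in the edited clone, far above the gene it contains. SRC, a tyrosine kinase gene near NNAT, fell in K/VP.5 against K562 from 45.8 to 19.2 CPM (log2 fold change -1.26, SE 0.13, edgeR adjusted p = 5.69e-07).

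PEG3 (ENSG00000198300, chr19:56810077-56840728, minus strand), a paternally expressed zinc finger gene, had 0 counts in 10 of the 12 libraries, 1 in K/VP.5 replicate 4 and 2 in K562/SSedit-2 replicate 4. SNRPN (ENSG00000128739, chr15:24823637-24978723, plus strand), a splicing factor gene of the Prader-Willi region, also had 0 in 10 of 12 libraries, 2 in K/VP.5 replicate 4 and 1 in K562/SSedit-2 replicate 2. Neither gene reached 4 counts in any library, so a level above 0.102 CPM was not detected in any of the 3 lines. The listed neighbors of PEG3, ZIM2 and MIMT1, had 0 counts in all 12 libraries. Of 8 other listed genes of the SNRPN region, NDN, MAGEL2, NPAP1, SNURF and PWRN1 were silent in all 3 lines, and MKRN3, UBE3A and SNHG14 were not. ZIM2 and SNURF share exons with PEG3 and SNRPN, which limits what their 0 shows, as given below. MKRN3, a ubiquitin ligase gene, averaged 26.2, 41.8 and 27.5 CPM, and SNHG14, a noncoding RNA annotated from the end of SNRPN onward, averaged 0.878, 0.830 and 1.12 CPM, each in the order parental line, K/VP.5 and edited clone.

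How reads over overlapping genes were counted bears on the silent members. Of 789 genes that lie wholly inside exons of a gene on the same strand with at least 1000 counts, 655 (83.0%) had 0 counts in all samples, as did 94.7% of the 414 that lie inside exons of such a gene on the opposite strand, and SNURF, INS-IGF2 and ZIM2, which share exons with SNRPN, IGF2 and PEG3, had 0 in all 12 libraries. The canonical SNRPN transcript shares 1146 of its 1468 bases (78.1%) with exons of other genes, PEG3 shares 4969 of 8754 (56.8%) and IGF2 shares 2514 of 5580 (45.1%), on either strand. Over all annotated PEG3 exons, 12.9% of bases are shared on the same strand and 50.9% on either. For MEST the share was 20.1%, for PEG10 7.85% and for NNAT 6.75%, and H19, KCNQ1OT1, DLK1 and MEG3 shared none. For SNRPN, PEG3 and IGF2 a count of 0 may thus cover only the bases that no other annotated gene shares, and for PEG3 this depends on whether the counting used strand. Over the whole table, 42540 of 60671 genes had at least 1 count. The share at 0 among genes of like length that overlap no other gene was not computed. The shares at 0 among contained genes therefore do not by themselves show how reads were counted. The overlap check was added after the values were seen, and the annotation and strand setting used for counting are not given in the sources used here.

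**Figure D3:**
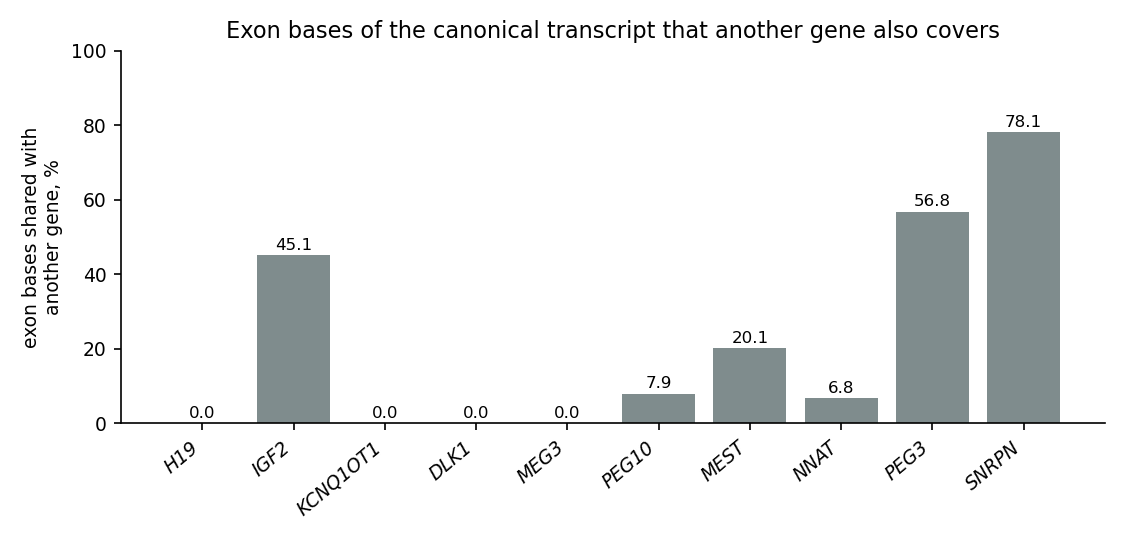
Share of the canonical transcript's exon bases, in percent of that transcript, that exons of another annotated gene also cover on either strand, for each of the 10 imprinted genes. SNRPN, PEG3 and IGF2, the members with the fewest counts, have the 3 tallest bars at 78.1%, 56.8% and 45.1%.

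Across the members, 6 of 10 had counts enough for the fit: H19, KCNQ1OT1, DLK1, PEG10, MEST and NNAT. PEG10 entered it through its 4 K/VP.5 libraries alone, so the filter favored a difference for it. MEST entered it through 3 libraries of K/VP.5 and 1 of the edited clone, and it was not tested when only K/VP.5 and K562 were fitted. In K/VP.5 against K562, 3 of the 6 were higher and none was lower by the threshold used, a 2-fold difference with the false discovery rate held at 10%, beside 15.6% of all 18626 genes tested. In K562/SSedit-2 against K562, 0 of the 6 passed, beside 2.06% of all genes, with 1 of the 6, H19, at an unadjusted edgeR p under 0.05 and 0 also by DESeq2 and limma voom. In K562/SSedit-2 against K/VP.5, 2 of the 6, H19 and PEG10, were lower, beside 15.8% of all genes. Both comparisons with K562 share its 4 libraries, and the 2 with K/VP.5 share those of that line.

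**Figure D4:**
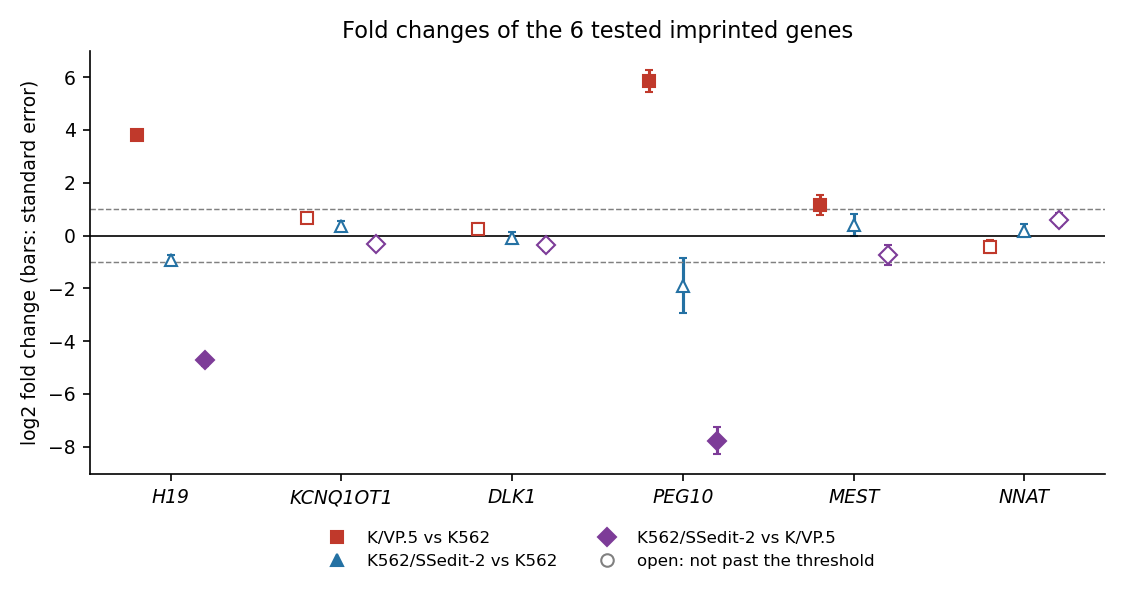
Log2 fold change (points; bars are standard errors) of the 6 tested imprinted genes in the 3 comparisons; filled symbols passed the threshold and dashed lines mark a 2-fold change. H19 (3.80) and PEG10 (5.86) stand highest in K/VP.5 against K562 and lowest in K562/SSedit-2 against K/VP.5, and DLK1 stays between -0.37 and 0.27 throughout.

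Of 45 other imprinted genes listed, 44 were in the table, 18 of them were silent in all 3 lines, and 22 were tested. The silent share of all genes in all 3 lines was 55.4%. Among the silent genes, MCTS2 shares 99.6% of its exon bases with other genes on the same strand, SNURF 52.1%, ZIM2 41.2% and INS 37.5%. All of these had 0 counts in all 12 libraries, and as for SNRPN this 0 may cover only the unshared bases. In K/VP.5 against K562, 4 of the 22 tested were higher and 2 lower past the threshold (27.3%, beside 15.6% of all genes tested), and the median log2 fold change was 0.23 beside 0.01 over all genes tested. In K562/SSedit-2 against K562, 0 were higher and 1 was lower (4.55% beside 2.06% of all genes, median -0.09 beside -0.01). In K562/SSedit-2 against K/VP.5, 2 were higher and 5 lower (31.8% beside 15.8% of all genes, median -0.05 beside -0.01). Of the 4 genes higher in K/VP.5 than in K562, KLF14, MEG8 and ZDBF2 were above the filter in K/VP.5 libraries only, so the filter favored their difference. The same 3 are among the 7 called in K562/SSedit-2 against K/VP.5. ZDBF2, a zinc finger gene under 1 CPM named here after its values were seen, was the remaining one higher in K/VP.5 than in K562 (log2 fold change 2.14, SE 0.48, edgeR adjusted p = 0.00160). The named genes beyond those already described were PLAGL1, HYMAI and NLRP2.

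PLAGL1, a zinc finger transcription factor that restrains growth, and HYMAI, the noncoding RNA that shares its start, were lower in K/VP.5. PLAGL1 had 45.0, 34.0, 31.3 and 32.9 CPM in K562, 2.87, 2.95, 2.75 and 2.58 CPM in K/VP.5, and 35.3, 34.5, 30.0 and 30.6 CPM in K562/SSedit-2. It was 12.8-fold below its K562 level in K/VP.5 (log2 fold change -3.68, SE 0.13, edgeR adjusted p = 6.77e-13), while K562/SSedit-2 overlapped K562 (log2 fold change -0.13, edgeR adjusted p = 0.501). HYMAI averaged 1.01 CPM in K562, 0.0391 CPM in K/VP.5 and 0.918 CPM in the edited clone, and its log2 fold change in K/VP.5 against K562 was -4.47 (SE 0.45, edgeR adjusted p = 4.19e-07). HYMAI entered the fit through the libraries of the other lines, with 0 of K/VP.5 above the filter, so the filter favored a difference. Being transcribed from neighboring starts on 1 strand, the genes overlap, and the division of reads between them is uncertain.

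The start regions of H19 and of PLAGL1 with HYMAI are shown because these genes moved in opposite directions in K/VP.5. RefSeq promoter windows on GRCh38.p14, 300 bases around a start, were given for 4 of the 10 members, H19, MEG3, MEST and SNRPN. The 250 bases before the start are printed on the transcribed strand with each CpG, the site of DNA methylation, in capitals.
H19, chr11:2001267-2001516, minus strand: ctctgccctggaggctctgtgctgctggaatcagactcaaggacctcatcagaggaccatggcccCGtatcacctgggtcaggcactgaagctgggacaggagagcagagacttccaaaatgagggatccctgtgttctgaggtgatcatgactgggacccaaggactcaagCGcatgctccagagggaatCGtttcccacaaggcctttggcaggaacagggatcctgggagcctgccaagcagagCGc
HYMAI and PLAGL1, chr6:144008260-144008509, minus strand: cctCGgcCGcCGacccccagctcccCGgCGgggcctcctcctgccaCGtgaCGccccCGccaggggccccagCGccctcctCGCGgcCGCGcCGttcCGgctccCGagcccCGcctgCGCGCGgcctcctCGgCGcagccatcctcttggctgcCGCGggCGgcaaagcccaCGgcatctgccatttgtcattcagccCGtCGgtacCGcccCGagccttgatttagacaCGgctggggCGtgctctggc
The whole H19 window holds 6 CpG, with an observed to expected ratio of 0.24, and the shared PLAGL1 and HYMAI window holds 39 with a ratio of 0.93, against medians of 14 and 0.58 over all windows. The motif TGCCGC, bound by ZFP57 when methylated, was searched on both strands: it occurs 0 times in the H19 window and 2 times in the PLAGL1 and HYMAI window, and 16.7% of all windows hold it. PLAGL1 has 4 further windows in the table, with 2, 3, 3 and 31 CpG. H19 has only the window shown, and it lies inside the GENCODE span of H19, chr11:1995166-2004552, so other starts of H19 are not described. Gene counts do not show which start is used for either gene. These letters do not tell whether the sites are methylated in the 3 lines.

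NLRP2, an imprinted gene of the NLR family with a known role in early embryos, was the 1 listed gene past the threshold in K562/SSedit-2 against K562. It had 93.1, 93.4, 96.1 and 93.3 CPM in K562, 120.0, 124.3, 123.4 and 127.2 CPM in K/VP.5, and 44.7, 45.8, 45.9 and 45.4 CPM in K562/SSedit-2. The lines did not overlap, and the mean fell 2.07-fold in K562/SSedit-2 against K562 (log2 fold change -1.05, SE 0.05, edgeR adjusted p = 3.81e-09). In K/VP.5 it was above K562 by 0.40, short of the 2-fold cutoff.

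Of 12 factors that set or keep imprints, 11 were tested, and 1 passed the threshold in K/VP.5 against K562, or 9.09% beside 15.6% of all genes. DNMT3A, a de novo DNA methyltransferase, had 52.4, 67.1, 70.4 and 68.9 CPM in K562, 160.8, 174.4, 169.7 and 174.5 CPM in K/VP.5, and 55.4, 55.5, 65.7 and 55.1 CPM in K562/SSedit-2. It was 2.62-fold higher in K/VP.5 than in K562 (log2 fold change 1.39, SE 0.09, edgeR adjusted p = 2.17e-09) and 2.93-fold lower in the edited clone than in K/VP.5 (edgeR adjusted p = 5.86e-10). ZFP57 had 2 counts in 1 K/VP.5 library and 0 in the other 11 libraries. In K562/SSedit-2 against K562, 0 of the 11 passed by edgeR, beside 2.06% of all genes, with 3 at an unadjusted p under 0.05, 0 past the threshold by DESeq2 and 0 by limma voom.

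**Figure D5:**
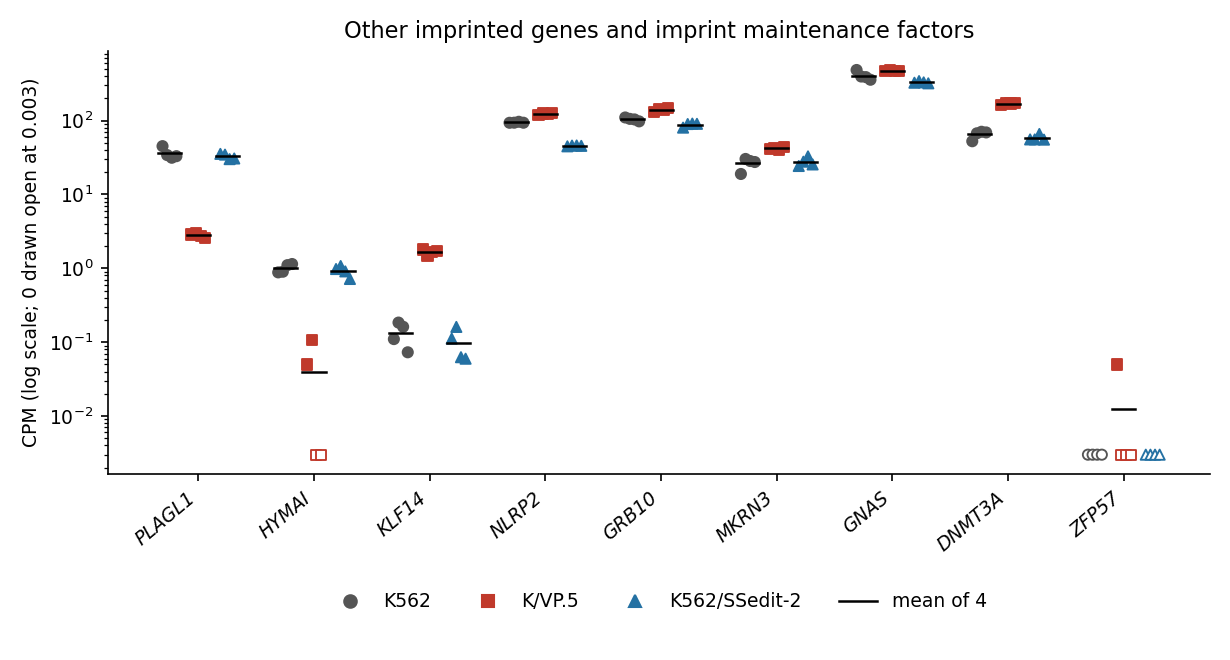
CPM (log axis) of 7 other imprinted genes and 2 imprint maintenance factors, DNMT3A and ZFP57, in each library; points are replicates, black bars are means of 4, and a count of 0 is drawn as an open symbol at 0.003. PLAGL1 and HYMAI sit lower in K/VP.5 than in the other lines, KLF14 and DNMT3A sit higher, and NLRP2 is lowest in K562/SSedit-2.

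Of the 316 annotated genes within 250 kb of a member, 36 were tested. In K/VP.5 against K562, 5 were higher and 4 lower past the threshold (25.0% beside 15.6% of all genes), in K562/SSedit-2 against K562 0 passed by edgeR (beside 2.06% of all genes), and in K562/SSedit-2 against K/VP.5 4 were higher and 6 lower (27.8% beside 15.8% of all genes). In the comparison with 0, 2 of the 36 had an unadjusted edgeR p under 0.05, and 0 passed by DESeq2 and 0 by limma voom. KLF14, MEG8 and RTL1 are counted both here and among the other imprinted genes, and 3 of the 9 genes called in K/VP.5 against K562, ASCL2, KLF14 and MEG8, were above the filter in K/VP.5 only. C11orf21 and ENSG00000250644, both lower in K/VP.5, had 0 K/VP.5 libraries above the filter. The filter favored the difference of each of these genes, and all of them are also among the 10 called in K562/SSedit-2 against K/VP.5. The neighbors past the threshold include ASCL2, MRPL23, KLF14, COL1A2 and SRC given above. CEP41, a centrosomal protein gene near MEST, passed between the derived lines alone, with means of 27.0 CPM in K/VP.5 and 13.1 CPM in K562/SSedit-2 (log2 fold change -1.04, edgeR adjusted p = 1.58e-06).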

How the data were processed

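RNA was sequenced from 12 samples of 3 lines, the parental K562 and its derivatives, with 4 replicates a line. Paired-end reads of 150 bases were aligned to GRCh38 with HISAT2 by the authors, who deposited whole-number counts per gene from featureCounts, without normalization. The annotation release, strand setting and handling of multi-mapped reads are not given in the sources used here. Symbols, positions and exons came from GENCODE 44, which held 60401 of the 60671 gene identifiers.

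Software was edgeR 4.0.16, DESeq2 1.42.0 and limma 3.58.1 under R 4.3.3, with scipy 1.17.1, matplotlib 3.10.9 and pysam 0.24.0 under Python 3.11.15. The filterByExpr function, at a minimum count of 10, retained 18626 genes. All 12 samples were scaled by TMM and fitted together by line, and lines were compared with edgeR's quasi-likelihood test, its p-values adjusted by Benjamini-Hochberg over those 18626 genes. A gene passed when it differed at least 2-fold with the false discovery rate held at 10%. CPM is relative to the counts in tested genes times the TMM factor, standard errors were taken from the log2 fold change and its F statistic, and permutation tests were exact and two-sided on mean CPM. Intervals cover counting error only. The fit was tested on simulated data with large changes in genes above 1 CPM, which does not cover lower genes or changes near the 2-fold cutoff.

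All 10 members are named, as are the main host, readthrough and antisense genes overlapping them; other imprinted genes, maintenance factors and genes within 250 kb are named when past the threshold, provided that one line reached 1 CPM and the replicates did not overlap, at most 8 per list. CDKN1C, PHLDA2, MKRN3, C11orf21, ENSG00000250644, MRPL23-AS1, MCTS2, INS, COL1A1 and EPCAM were named after their values were seen. Members and lists were chosen with earlier results of these data known. IPW was not matched by symbol. The result of 1 marker gene is not reported here.

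Replicate numbers come from the labels. Samples with the same number had deviations from their line means that correlated at 0.135 to 0.292 across genes between K562/SSedit-2 and K562, all over 0.1, so these numbers were taken to pair the samples. Samples with different numbers correlated at -0.313 to 0.128. The main fit and the permutation tests did not use this pairing, and the replicate block, an alternative, did. Alternatives were RLE or upper-quartile scaling, no filter or at least 1 CPM in 4 samples, DESeq2, limma voom (the tool the study names), only the lines compared, the replicate block, each replicate left out, an adjusted p under 0.05, no fold cutoff, and silence defined by 10 counts or by a mean under 0.1 CPM. Sequence reads, parental alleles and methylation were not analysed here.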

Additional observations from a re-analysis of the deposited data

How the results depend on the processing

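H19 and PEG10 in K/VP.5 against either other line kept their direction and their side of the threshold in every alternative run. Over all 3 comparisons, 275 alternative log2 fold changes of the 6 tested genes kept both, 3 newly passed the threshold, 2 no longer passed and 2 changed sign. The number of members past the threshold in K562/SSedit-2 against K562 was 1 instead of 0 with no fold cutoff, and 0 to 1 with a replicate left out: H19 passed without K562 replicate 4 (log2 fold change -1.03) or without K562/SSedit-2 replicate 1 (-1.15). DLK1 in that comparison ranged from -0.296 to 0.091 and changed sign without K562 replicate 1 (0.091) or K562/SSedit-2 replicate 4 (0.088). MEST was not tested with at least 1 CPM in 4 samples or in fits of K562 with only 1 derived line. MEST between the derived lines reached -1.13 without K562/SSedit-2 replicate 4. The other imprinted genes past the threshold in K/VP.5 against K562 numbered 2 with at least 1 CPM in 4 samples, where fewer genes are tested, and 17 with no fold cutoff, instead of 6. In K562/SSedit-2 against K562 they numbered 4 with no fold cutoff instead of 1, and in K562/SSedit-2 against K/VP.5 they numbered 3 and 15 under the same alternatives instead of 7. How many of all genes passed with no fold cutoff was not computed, so the numbers without that cutoff cannot be set against a background. With silence defined as 10 or fewer counts, 5 members instead of 3 were silent in K562, 3 instead of 2 in K/VP.5 and 5 instead of 4 in K562/SSedit-2, MEST and PEG10 joining in K562 and MEG3 in both derived lines. With a mean under 0.1 CPM the numbers were 4, 2 and 5. Over all genes, no filter gave 4332 and 4356 calls in the comparisons with K/VP.5 against 2914 and 2945, and the stricter filter gave 246 in K562/SSedit-2 against K562 instead of 384, with 1923 and 1972 in the others. With the replicate block, 3, 0 and 2 members passed in the 3 comparisons and no member's call changed. For K/VP.5 the numbers do not pair the samples: same-numbered correlations were -0.003 to 0.269 with K562 and -0.095 to 0.161 with K562/SSedit-2. The causes of these changes were not tested. Below about 3 counts per library, depth does not separate a silent gene from a rare transcript.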
